A study of Solanum lycopersicum with 2 samples.

Results

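The class A heat stress transcription factors (Hsfs) HsfA2, HsfA3, HsfA4a, HsfA4b, HsfA4c, HsfA5, HsfA6a, HsfA6b, HsfA7 and HsfA8 of tomato (Solanum lycopersicum) were followed in leaf RNA from heat-stressed and control plants. They were chosen as a fixed list of 10 gene models, with earlier results of these data known, out of 24915 models listed in at least 1 library. Their names are those of the published tomato Hsf nomenclature. All 10 were listed in both libraries. There were 2 libraries, 1 per condition, both from young leaves, taken at several developmental stages, of 8-week-old plants of the cultivar Moneymaker. The heat-stress library came from plants moved from the glasshouse to a growth chamber with light at 120 μmol m-2 s-1, kept for 1 h at 39°C and then for 1.5 h at 24°C. The control library came from plants raised in the same glasshouse, with 16 h days at 24°C and 8 h nights at 20°C, and whether they too were moved to the chamber is not stated in the labels. How many plants went into each library is also not stated.

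Hsfs are the transcription factors that switch on heat shock protein genes by binding heat shock elements in their promoters. In tomato, the HsfA1 factors are present before stress and start the response, and HsfA2 is made under heat, joins HsfA1 as a coactivator and becomes the most abundant Hsf protein of cells that have acquired thermotolerance. Class A factors typically carry an activation domain in their C-terminal part, which class B and class C factors lack.

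The transcripts were counted by massive analysis of cDNA ends (MACE), which sequences the 3′ end of polyadenylated RNA and is designed, per the labels, to represent each transcript by 1 read. Molecular identifiers are not mentioned there, so copies made by amplification may be among the reads. Levels are given in reads per 1000000 mapped reads (RPM), need no correction for transcript length and can be set beside each other between genes, provided that the annotated models extend to where the transcripts really end. Mapped reads came to 13857252 in the heat-stress library and 11534512 in the control library, so that 1 read was worth 0.0722 RPM in the heat-stress library and 0.0867 RPM in the control library. Ratios of RPM have 95% exact intervals that cover counting error only. With 1 library per condition no difference has a replicate check, no test between conditions was possible, and a value describes these libraries. In leaf tissue, a change in RNA per cell and a change in the share of cells that make it cannot be told apart. Leaf identity was visible in 4 models assigned to Rubisco small subunits and a chlorophyll-binding protein, which together had 18470 RPM in the heat-stress library and 30959 RPM in the control library.

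Of the 10 factors 9 had a higher level in the heat-stress library than in the control library, as did 58.8% of the 24915 listed models, and 1, HsfA4c, had a lower one. HsfA2, HsfA4b and HsfA6a had ratios above 2, at levels that stayed modest in both libraries. The intervals of all 3 ratios include 2, and HsfA4b and HsfA6a averaged under 5 RPM. With 0.1 RPM added to each level, a setting chosen after seeing the data, these 3 were among 2233 of 24915 models at least 2-fold higher. The interval of the ratio lay wholly above 1 for 7 factors (HsfA2, HsfA3, HsfA4a, HsfA4b, HsfA5, HsfA6a and HsfA8), held 1 for HsfA4c, HsfA6b and HsfA7, and lay wholly below 1 for 0. Over all listed models 20.1% had an interval wholly above 1 and 11.1% wholly below 1. Of the 11271 models whose level averaged 5 RPM or more, 36.0% had an interval wholly above 1, as did 5 of the 6 factors at such a level. The 7 stayed the same after scaling the heat-stress values down by the median ratio of all models past 5 RPM, a factor of 1.08, which is 0.11 on the log2 scale. Summed over the 10 factors, the level was 134.8 RPM in the heat-stress library and 92.5 RPM in the control library, a ratio of 1.46 (1.35 to 1.57).

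**Figure D1:**
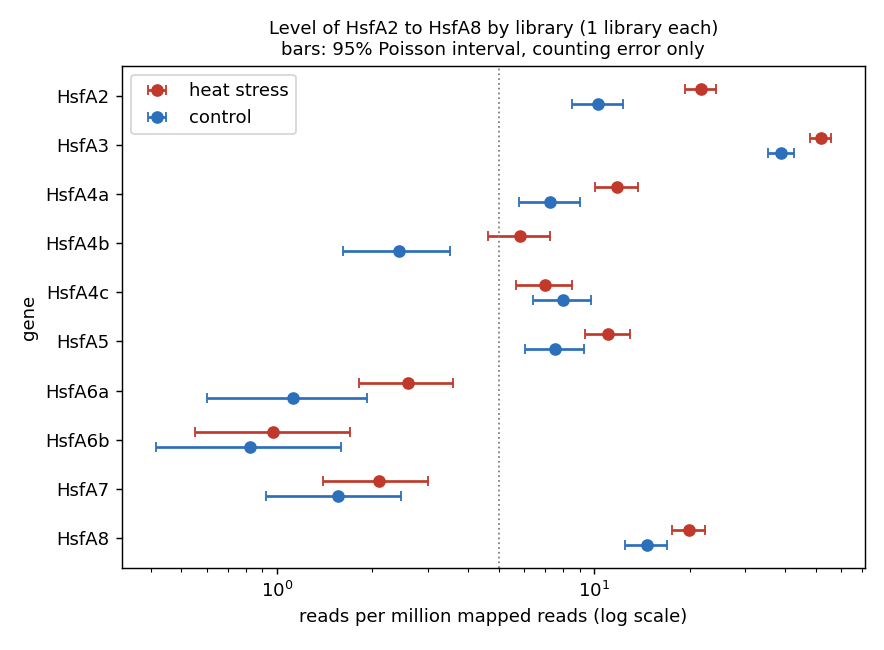
Level of each factor in reads per 1000000 mapped reads (log axis) in the heat-stress library (red, upper point) and the control library (blue, lower point), 1 library each; bars are 95% Poisson intervals, covering counting error only, and the dotted line is 5 RPM. The HsfA2 points stand at 21.7 RPM in the heat-stress library and 10.3 RPM in the control library with separate bars, while the HsfA4c points, at 7.00 and 7.98 RPM in the same order, have overlapping bars.

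HsfA2 and HsfA3 are the class A factors known for maintaining the heat response after its onset, HsfA3 in Arabidopsis as a target of the dehydration-responsive factor DREB2A. HsfA2 (Solyc08g062960.2, chromosome 8) had 301 reads in the heat-stress library and 119 in the control library, which is 21.7 RPM (95% Poisson interval 19.3 to 24.3) in the heat-stress library and 10.3 RPM (8.55 to 12.3) in the control library. Its ratio was 2.11 (1.70 to 2.63), a difference clear of counting error between these libraries. HsfA3 (Solyc09g009100.2, chromosome 9) was the most abundant of the 10 in both libraries, with 718 reads and 51.8 RPM (48.1 to 55.7) in the heat-stress library and 448 reads and 38.8 RPM (35.3 to 42.6) in the control library. Its ratio of 1.33 (1.18 to 1.50) was smaller than that of HsfA2, but its gain of 12.97 RPM was the larger beside the 11.4 RPM of HsfA2. Together these genes supplied 30.7% (HsfA3) and 27.0% (HsfA2) of the net gain of 42.3 RPM summed over the 10 factors.

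For the whole data, differences were counted on the scale log2((heat-stress RPM + 1)/(control RPM + 1)), among models averaging 5 RPM or more, at a threshold of 2-fold. HsfA2, HsfA3, HsfA4a, HsfA4c, HsfA5 and HsfA8 were past that filter, and HsfA4b, HsfA6a, HsfA6b and HsfA7 were not. Of the 6, 1 was at least 2-fold higher, against 3.91% of all 11271 models past the filter, and 0 were at least 2-fold lower, against 1.66% of all models. The 1 was HsfA2, at a log2 ratio of 1.01, which is at the threshold. It was under the threshold with the median ratio scaling, at 0.90, and with a pseudocount of 5 RPM, at 0.80, and a filter of 20 RPM removed it. HsfA4b stood next to it at 0.998, with a mean of 4.14 RPM, just under the threshold and under the filter. Over all 10 factors the median log2 ratio was 0.46, against 0.07 over all listed models, and over the 6 past the filter it was also 0.46, against 0.10 over all models past it.

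HsfA4 and HsfA5 form a closely related pair of subgroups. In Arabidopsis, HsfA4a is linked to responses to reactive oxygen, and HsfA5 is known to bind HsfA4 factors and repress their activity. Among the 3 HsfA4 genes, HsfA4a and HsfA4b were higher in the heat-stress library and HsfA4c was not. HsfA4a (Solyc03g006000.2, chromosome 3) had 164 reads and 11.8 RPM (10.1 to 13.8) in the heat-stress library, against 84 reads and 7.28 RPM (5.81 to 9.02) in the control library, a ratio of 1.63 (1.24 to 2.14). HsfA4b (Solyc07g055710.2, chromosome 7) had 81 reads and 5.85 RPM (4.64 to 7.27) in the heat-stress library, against 28 reads and 2.43 RPM (1.61 to 3.51) in the control library. Its ratio of 2.41 (1.55 to 3.84) was the highest point value among the 10, with a wide interval that includes the ratio of HsfA2. HsfA4c (Solyc02g072000.2, chromosome 2) had 97 reads and 7.00 RPM (5.68 to 8.54) in the heat-stress library and 92 reads and 7.98 RPM (6.43 to 9.78) in the control library. At a ratio of 0.878 (0.653 to 1.18) the level of HsfA4c did not differ between the libraries beyond counting error. HsfA5 (Solyc12g098520.1, chromosome 12) had 153 reads and 11.0 RPM (9.36 to 12.9) in the heat-stress library and 87 reads and 7.54 RPM (6.04 to 9.30) in the control library. Its ratio was 1.46 (1.12 to 1.93), between those of HsfA4a and HsfA4c. In the control library HsfA4a, HsfA4c and HsfA5 lay close together, between 7.28 and 7.98 RPM, and in the heat-stress library HsfA4a and HsfA5 stood above HsfA4c.

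HsfA6 and HsfA7 factors are known in Arabidopsis as stress-induced Hsfs, HsfA6b within the abscisic acid response and HsfA7a in heat, and in tomato HsfA7 is known as a heat-induced factor of thermotolerance. All 3 were at the low end here, under 3 RPM in both libraries. HsfA6a (Solyc09g082670.2, chromosome 9) had 36 reads and 2.60 RPM (1.82 to 3.60) in the heat-stress library and 13 reads and 1.13 RPM (0.600 to 1.93) in the control library. The ratio of HsfA6a was 2.31 (1.19 to 4.74), resting on few reads. HsfA7 (Solyc09g065660.2, chromosome 9) had 29 reads and 2.09 RPM (1.40 to 3.01) in the heat-stress library and 18 reads and 1.56 RPM (0.925 to 2.47) in the control library, a ratio of 1.34 (0.720 to 2.56). HsfA6b (Solyc06g053960.2, chromosome 6) was the lowest of the 10 in both libraries, with 13.5 reads and 0.974 RPM (0.552 to 1.70) in the heat-stress library and 9.5 reads and 0.824 RPM (0.416 to 1.59) in the control library. A difference in HsfA7 or HsfA6b was not detectable at this depth: the interval of HsfA6b, 0.481 to 2.93 around a ratio of 1.18, takes in differences past 2-fold in both directions. The fractional reads of HsfA6b mean that some were divided with another location in the genome.

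HsfA8 is linked in Arabidopsis to the sensing of redox state. The tomato gene (Solyc09g059520.2, chromosome 9) had 275.5 reads and 19.9 RPM (17.6 to 22.4) in the heat-stress library and 169 reads and 14.7 RPM (12.5 to 17.0) in the control library. Its ratio of 1.36 (1.12 to 1.66) was much like that of HsfA3, and part of its reads in the heat-stress library was divided with another location.

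**Figure D2:**
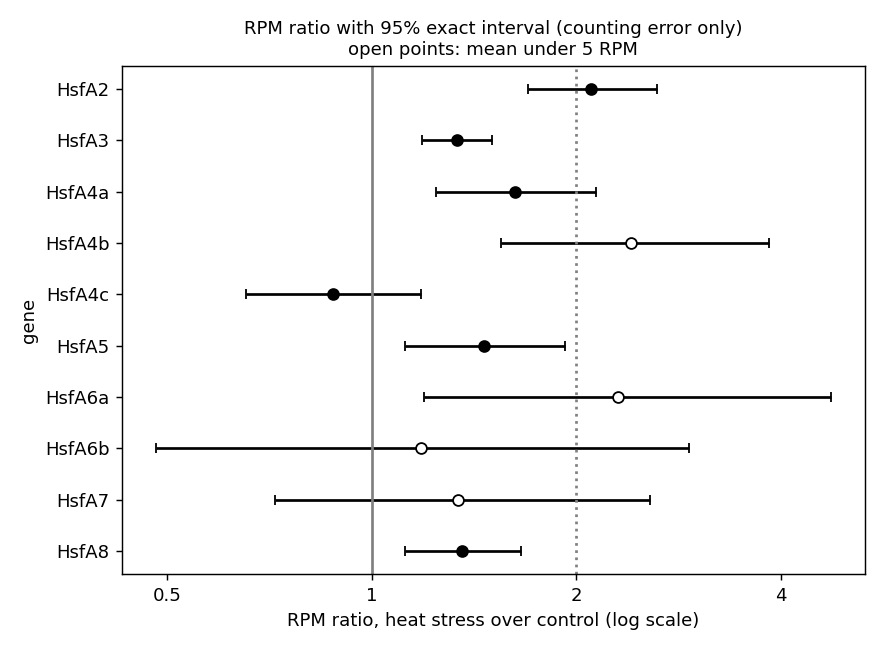
Ratio of RPM, heat stress over control, for each factor (log axis) with its 95% exact binomial interval, covering counting error only; open points have a mean under 5 RPM, the solid line marks no difference and the dotted line 2-fold. The 7 intervals wholly to the right of the solid line run from HsfA3 at 1.33 to HsfA4b at 2.41, and those of HsfA4c, HsfA6b and HsfA7 cross it.

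The order of the factors by level was headed by HsfA3 and closed by HsfA6b in both libraries and differed in between. In the heat-stress library the order from high to low was HsfA3, HsfA2, HsfA8, HsfA4a, HsfA5, HsfA4c, HsfA4b, HsfA6a, HsfA7 and HsfA6b. Of the neighbours in this order, HsfA2 and HsfA8, HsfA4a and HsfA5, HsfA4c and HsfA4b, and HsfA6a and HsfA7 did not differ beyond counting error. In the control library the order was HsfA3, HsfA8, HsfA2, HsfA4c, HsfA5, HsfA4a, HsfA4b, HsfA7, HsfA6a and HsfA6b. There HsfA8 was 1.42 times as abundant as HsfA2 (1.12 to 1.81), whereas in the heat-stress library HsfA2 was 1.09 times as abundant as HsfA8 (0.923 to 1.29). Control levels from HsfA2 down to HsfA4a, and again from HsfA4b down to HsfA6b, did not differ from one neighbour to the next. Among all listed models HsfA2 ranked 5677 of 23748 in the heat-stress library and 8393 of 22893 in the control library. HsfA3 made up 38.4% of the summed level of the 10 in the heat-stress library and 42.0% in the control library, and HsfA2 made up 16.1% in the heat-stress library and 11.1% in the control library.

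Whether the ratios themselves differed between factors does not depend on how the libraries are scaled. Of 45 pairs of factors, the quotient of the ratios had a 95% conditional exact interval that excluded 1 in 12, with no adjustment for the number of pairs. HsfA4c was in 7 of these 12, on the lower side each time, against HsfA2, HsfA3, HsfA4a, HsfA4b, HsfA5, HsfA6a and HsfA8. Pairs that share a factor reuse its reads and are not independent. HsfA4c had the lowest ratio of the 10, so the direction of its 7 pairs follows from that rank. The ratio of HsfA2 was 1.58 times that of HsfA3 (1.23 to 2.03), 1.55 times that of HsfA8 (1.15 to 2.08), 1.44 times that of HsfA5 (1.01 to 2.04) and 2.40 times that of HsfA4c (1.65 to 3.48). The contrast within the HsfA4 genes was also one of ratios, not of levels. The ratio of HsfA4b was 2.74 times that of HsfA4c (1.59 to 4.78), and the ratio of HsfA4a was 1.85 times that of HsfA4c (1.23 to 2.78). HsfA6b and HsfA7 were in 0 of the 12, and their intervals were among the widest.

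Other Hsf models and the heat shock proteins were taken from lists of models named after published tomato nomenclature. These names could not be checked in the sources used here, and the lists may not hold every family member. Of 12 other Hsf models (4 HsfA1, HsfA9, 6 of class B and 1 of class C), 3 were past 5 RPM, and 0 of these 3 were at least 2-fold higher or lower. The 3 were the HsfA1 model Solyc08g005170, with 27.2 RPM in the heat-stress library and 26.0 RPM in the control library, and 2 class B models. Their log2 ratios ran from 0.04 to 0.24. Of the 12, 3 had an interval of the RPM ratio wholly above 1 and 1 wholly below it, against 20.1% and 11.1% of all listed models. Among the low models, HsfA1 models Solyc03g097120, at 1.73 RPM in the heat-stress library and 0.607 RPM in the control library, and Solyc06g072750, at 2.89 RPM in the heat-stress library and 1.30 RPM in the control library, had ratios of 2.85 (1.19 to 7.84) and 2.22 (1.1997 to 4.33). These point values are as high as that of HsfA2, on few reads. The class B model Solyc08g080540 had 4 reads in the heat-stress library and 19 in the control library, a ratio of 0.175 (0.0434 to 0.527). The ratio of HsfA2 was 2.01 times that of the HsfA1 model past 5 RPM (1.54 to 2.64), and 1.77 (1.38 to 2.28) and 2.04 (1.57 to 2.66) times those of the class B models Solyc02g090820 and Solyc03g026020. That of HsfA4a was also above all 3, by 1.55 (1.14 to 2.13), 1.37 (1.02 to 1.85) and 1.58 (1.16 to 2.15) times in the same order. HsfA3, HsfA5 and HsfA8 had quotients with intervals above 1 against Solyc08g005170 and Solyc03g026020 and holding 1 against Solyc02g090820, as for HsfA3 with 1.28 (1.05 to 1.55), 1.29 (1.07 to 1.56) and 1.12 (0.945 to 1.33). The quotients of HsfA4c were under 1 against all 3, from 0.738 to 0.852, with intervals that held 1. Quotients against the low models were not computed. Among 10 models of heat shock proteins (Hsp101, small heat shock proteins and Hsp90), the families that Hsfs act on, in a list chosen with earlier results of these data known, 9 were at least 2-fold higher and 0 lower, with a median log2 ratio of 2.89 and a range from 0.98 to 4.12. Together they had 8942 RPM in the heat-stress library and 765 RPM in the control library. The log2 ratios of the 6 Hsfs past the filter, from -0.17 to 1.01, were all under that median, and HsfA2 was above the lowest of the 10, at 0.98. Because the list was chosen in this way, no conclusion is drawn from that order.

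**Figure D3:**
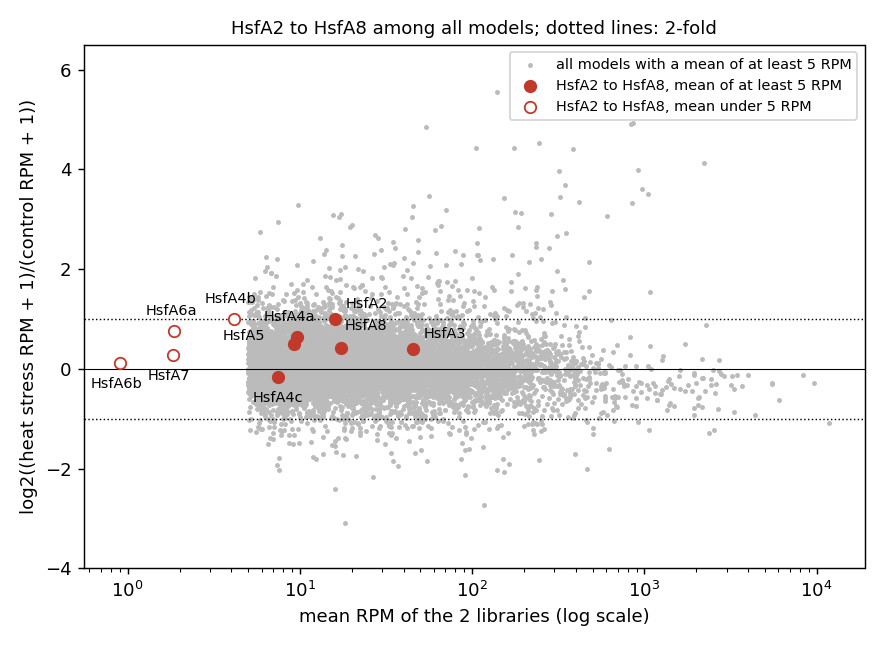
Log2 ratio with a pseudocount of 1 RPM against the mean RPM of the 2 libraries (log axis) for all 11271 models past 5 RPM (grey), with the 10 factors in red, open where the mean is under 5 RPM; dotted lines mark 2-fold. HsfA2 lies on the upper 2-fold line at 1.01, HsfA4c at -0.17 is the only factor below 0, and grey points lie well beyond both lines.

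HsfA2 lay at percentile 96.1 of the log2 ratios of all models past the filter, HsfA4a at 89.4, HsfA5 at 83.2, HsfA8 at 78.6, HsfA3 at 77.98 and HsfA4c at 25.2. The models nearest to HsfA2 in level in both libraries, by the distance between their log2(RPM + 1) values over the 2 libraries, were Solyc03g083150.2 on chromosome 3 and Solyc10g080350.1 on chromosome 10. Solyc03g083150.2 had 21.7 RPM in the heat-stress library and 10.3 RPM in the control library, at a distance of 0.0038. Solyc10g080350.1 had 20.96 RPM in the heat-stress library and 10.5 RPM in the control library, at a distance of 0.054. This likeness rests on 2 libraries and describes levels only.

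The files also give, for each model, the height in reads of its highest peak, although not how a peak was defined. These heights come from the same reads as the levels. The peak of HsfA2 had 66 of 301 reads in the heat-stress library, a share of 21.9% (95% exact binomial interval 17.4 to 27.0), and 25 of 119 in the control library, a share of 21.0% (14.1 to 29.4). Models with a like number of reads had a median share of 25.1% in the heat-stress library and 28.2% in the control library, inside the intervals of HsfA2. HsfA5 had the highest share among the 6 past the filter, with 39.9% (32.1 to 48.1) in its peak in the heat-stress library and 40.2% (29.9 to 51.3) in the control library, where models with like reads had medians of 27.3% and 30.3% in the same order, under the interval of HsfA5 in the heat-stress library and just inside it in the control library. HsfA3 had 24.8% (21.7 to 28.1) in the heat-stress library and 19.6% (16.1 to 23.6) in the control library, with medians of 23.7% and 24.7% for models with like reads, in the same order, the second of them above its interval. Medians also lay above the intervals of HsfA7 in the heat-stress library and HsfA4a in the control library, and inside those of the other factors. The point value was higher in the heat-stress library for 7 factors, as for 39.4% of the 21726 models listed in both libraries. The intervals of the libraries overlapped for each of the 10, which does not exclude a difference, and the shares were not compared directly. Peak heights per 1000000 mapped reads were higher in the heat-stress library for all 10, as for 54.1% of all listed models. The interval of their ratio was wholly above 1 for 4 factors and for 9.16% of all listed models. That share takes in models under 5 RPM, and the share for peaks among models past 5 RPM was not computed. For reads the share was 36.0% past 5 RPM and 20.1% over all listed models. The 4 factors were HsfA2 at 2.20 (1.37 to 3.63), HsfA3 at 1.68 (1.30 to 2.20), HsfA4a at 1.86 (1.03 to 3.52) and HsfA6a at 4.44 (1.27 to 23.8). The value of HsfA6a rests on peaks of 16 reads in the heat-stress library and 3 in the control library. HsfA4c, whose RPM was lower in the heat-stress library, had a peak ratio of 1.10 (0.634 to 1.93).

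**Figure D4:**
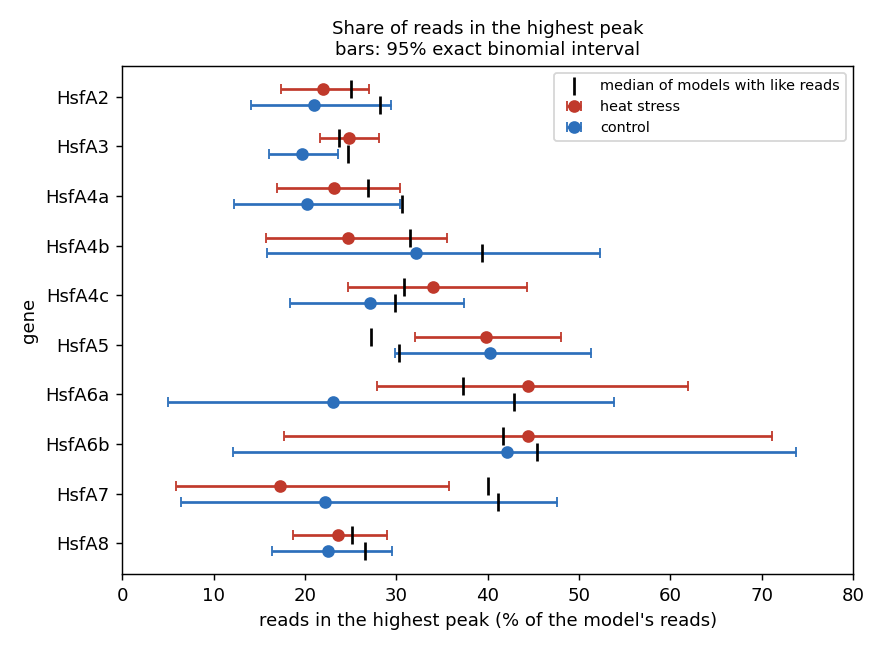
Share of each factor's reads that lie in its highest peak, in percent, in the heat-stress library (red, upper point) and the control library (blue, lower point), with 95% exact binomial intervals; black ticks are medians of models whose reads in that library were within a factor of 1.2. HsfA5 lies at 39.9% in the heat-stress library and 40.2% in the control library, to the right of its ticks, and HsfA2 at 21.9% and 21.0% in the same order.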

How the data were processed

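RNA was profiled by MACE in 2 libraries of tomato leaves. Per the labels' protocols, poly-A RNA was captured and the last 500 bp were sequenced. The submitters' processing notes name FastQC. Aligner, build, annotation and strand setting: none is given in the sources used here. Without the strand setting, a model's reads cannot be separated from those of an overlapping or antisense model. Per the file headers, the authors deposited for each model an estimated count of reads, with fractions from reads shared among locations, and the count of all mapped reads. The deposited column headed TPM matched reads per 1000000 mapped reads (RPM) on every row within 0.000001 RPM. The authors' peak height is a signal in reads, with no definition of a peak in the sources used here.

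Identifiers were matched without their version, and none of the 10 was found in a RefSeq table of 41476 genes, so names come from published nomenclature and no sequences are shown. A model not listed in a library counts as 0. Members and lists were chosen with earlier results of these data known. All 10 factors are named, with the 2 models nearest to the factor of largest absolute log2 ratio past the filter. Log2 ratios use a pseudocount of 1 RPM and a filter of a mean of at least 5 RPM. Intervals are 95% exact Poisson (levels), conditional binomial (ratios, on reads rounded to whole numbers) and conditional odds ratio (quotients). They cover counting error only, reads carry no molecular identifiers known here, and a model at few reads is the least precise. Other pseudocounts, filters, scalings and thresholds were tried. Calculations were tested on simulated data. Python 3.11.15, pandas 2.3.3, NumPy 2.4.6 and SciPy 1.17.1 were used.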

Additional observations from a re-analysis of the deposited data

How the results depend on the processing

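The count of factors at least 2-fold higher was 1 of 6 past the filter, against 441 of all 11271 models past it. It was also 1 with a pseudocount of 0.1 RPM, with no filter and with whole-number reads only. Over all models the counts were then 504 of 11271, 636 of 24915 and 296 of 8101, in the same order. It was 0 with a pseudocount of 5 RPM (HsfA2 at 0.80), with a filter of 20 RPM (which only HsfA3 passed), with the median ratio or trimmed mean scaling (HsfA2 at 0.90 in both) and at a 4-fold threshold. Over all models the counts were then 267 of 11271, 248 of 5865, 329 of 11162, 328 of 11161 and 87 of 11271, in the same order. It was 2 with scaling by reads in gene models, where HsfA4b joined HsfA2, and 2 at a 1.5-fold threshold, which HsfA4a at 0.63 also passed. Over all models the counts were then 535 of 12340 and 1370 of 11271, in the same order. It was 3 with no filter and a pseudocount of 0.1 RPM together, chosen after seeing the data, where HsfA2, HsfA4b and HsfA6a were at 1.07, 1.23 and 1.14. The count over all models rose too, to 2233 of 24915. The count of factors at least 2-fold lower was 0 in each setting. Over all models that count ran from 9, at the 4-fold threshold, to 1096, with no filter and a pseudocount of 0.1 RPM. The ratio of the summed level, 1.46, was 1.35 with the median ratio and 1.35 with the trimmed mean scaling. The median log2 ratio of factors past the filter lay between 0.35 and 0.53. Of 60 single log2 ratios under other settings 58 stayed within the counting interval of the ratio, taken to the log2(RPM + 1) scale, whose bounds lie nearer 0 than those of log2 of the RPM ratio. Apart from peak heights, those settings changed only the scaling or the pseudocount on the same reads, so the 58 are a weak check. With peak heights in place of reads HsfA3 was at 0.68 and HsfA4b at 0.46, outside that interval. HsfA4c was at 0.09 in place of -0.17, the 1 change of sign. The cause was not tested. These values carry the pseudocount of 1 RPM, and the peaks of HsfA4b were only 1.44 RPM in the heat-stress library and 0.780 RPM in the control library. Without a pseudocount the peak ratio of HsfA4b, 1.85, lay inside the interval of its RPM ratio, 1.55 to 3.84. The peak ratio of HsfA3, 1.68, lay above its interval, 1.18 to 1.50. No paired analysis was possible because there was only 1 library per condition. Depth limits HsfA6a, HsfA6b and HsfA7 most.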

Other observations

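The models beside each factor in identifier order, among models listed in at least 1 library, were also read. Of these 20 neighbours 13 were on the strand of the factor and 8 were past 5 RPM. Of the 8, 0 passed 2-fold upwards and 2 passed 2-fold downwards, against 3.91% and 1.66% of all models past the filter. Counts this small describe these neighbours only. The model before HsfA2, on the same strand, had 4.19 RPM in the heat-stress library and 11.1 RPM in the control library, a log2 ratio of -1.22, while the model after HsfA2 was at -0.32. The model before HsfA6a, also on the same strand, had 27.6 RPM in the heat-stress library and 72.4 RPM in the control library, a log2 ratio of -1.36. Both were named because they passed 2-fold downwards, and HsfA2 and HsfA6a were higher in the heat-stress library. Their opposite direction follows from that choice and says nothing further about the factors. What these neighbours do is not annotated in the sources used here.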
